A study of Mus musculus with 42 samples.

Results

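The mitochondrial ribosomal protein genes of the mouse, named Mrpl for the large and Mrps for the small subunit, were followed in liver through the first weeks of a high-fat diet (HFD). A gene was a member if its symbol began with Mrpl or Mrps and a digit and if it had a probe set listed with 1 gene symbol. Symbols of pseudogenes (ending in -ps) were left out, and the brightest probe set stood for a gene. This gave 68 members of 17989 genes measured. RefSeq lists 78 protein-coding genes under these symbols. The other 10 (Mrpl12, Mrpl15, Mrpl17, Mrpl20, Mrpl28, Mrpl4, Mrpl45, Mrpl53, Mrps25 and Mrps35) had no probe set of their own here and were not analysed.

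All mice were male, wild-type (WT) animals of the inbred strain C3HeB/FeJ, housed singly and fed at random. The 18 controls had a low-fat diet for at most 21 days and were 15 to 17 weeks old. The 3 HFD groups of 8 arrays each had 7, 14 or 21 days of HFD at 15, 16 and 17 weeks of age, so age rose with time on the diet. The study's title sets mitochondrial membrane proteins and membrane lipids before insulin resistance of the liver in time. Control arrays and those of 21 days are titled as a reanalysis and those of 7 and 14 days are not. What the word stands for cannot be told apart from 7 or 14 days of diet. The replicate numbers are not tied to animals by the labels. P-values here weigh a difference against sample-to-sample spread alone, and that spread may be partly technical.

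The mitochondrial ribosome sits in the matrix and translates the few proteins that mitochondrial DNA still encodes, all of them core subunits of the respiratory chain and the ATP synthase. Its RNAs come from the mitochondrial genome, while every one of its proteins is encoded in the nucleus, made in the cytosol and imported. Part of the proteins have a counterpart in bacterial ribosomes and part are found only in mitochondria. Liver is rich in mitochondria, and its respiratory chain subunits depend on this ribosome.

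Hepatocyte markers gave the labelled tissue: the mean of 8 of them lay between 11.95 and 12.69 on the log2 scale over all arrays. Pancreatic acinar markers, which liver should lack, varied widely within each group. The mean of 18 ran from 3.41 to 8.22 over controls and from 3.50 to 9.27, 3.45 to 9.14 and 3.32 to 6.28 at 7, 14 and 21 days. Precision is set by how many arrays a group has. The 919 olfactory receptor genes, silent in liver, set the background: their 95th percentile was 2.87, and 67.4% of all genes lay above it.

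Mitoribosomal transcripts were well measured and of middle to high level. Of the 68 members, 67 lay above background. The median member had a mean log2 value of 6.15, against 3.47 for all genes. The 43 large-subunit members had a median of 6.15 and the 24 small-subunit members 6.11. Those with a bacterial counterpart (42) had a median of 5.96 and those specific to mitochondria (26) had 6.25. The 26 include Mrps36, which was counted in neither subunit. Each probe set has its own response, so these are levels of probe sets and do not rank the transcripts.

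The highest members were Mrps18b, Mrps18c and Mrpl18. Mrps18b and Mrps18c belong to a family of 3 paralogues of 1 bacterial small-subunit protein, of which the third, Mrps18a, takes a place in the large subunit. Over the 18 controls Mrps18b ran from 7.11 to 8.04 (median 7.90), Mrps18c from 7.19 to 8.58 (7.73) and Mrpl18 from 7.19 to 8.39 (7.64). The lowest were Mrpl42 (3.17 to 4.64, median 3.98), Mrpl33 (2.87 to 3.78, 3.13) and Mrps36 (2.57 to 2.91, 2.75). Mrps36, the member that stayed at background, is known as a subunit of the 2-oxoglutarate dehydrogenase complex and not of the ribosome. RefSeq lists 3 pseudogenes of it, and 1 each of Mrpl23, Mrpl27 and Mrpl48, so signal of these genes could be shared with the copies.

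**Figure D1:**
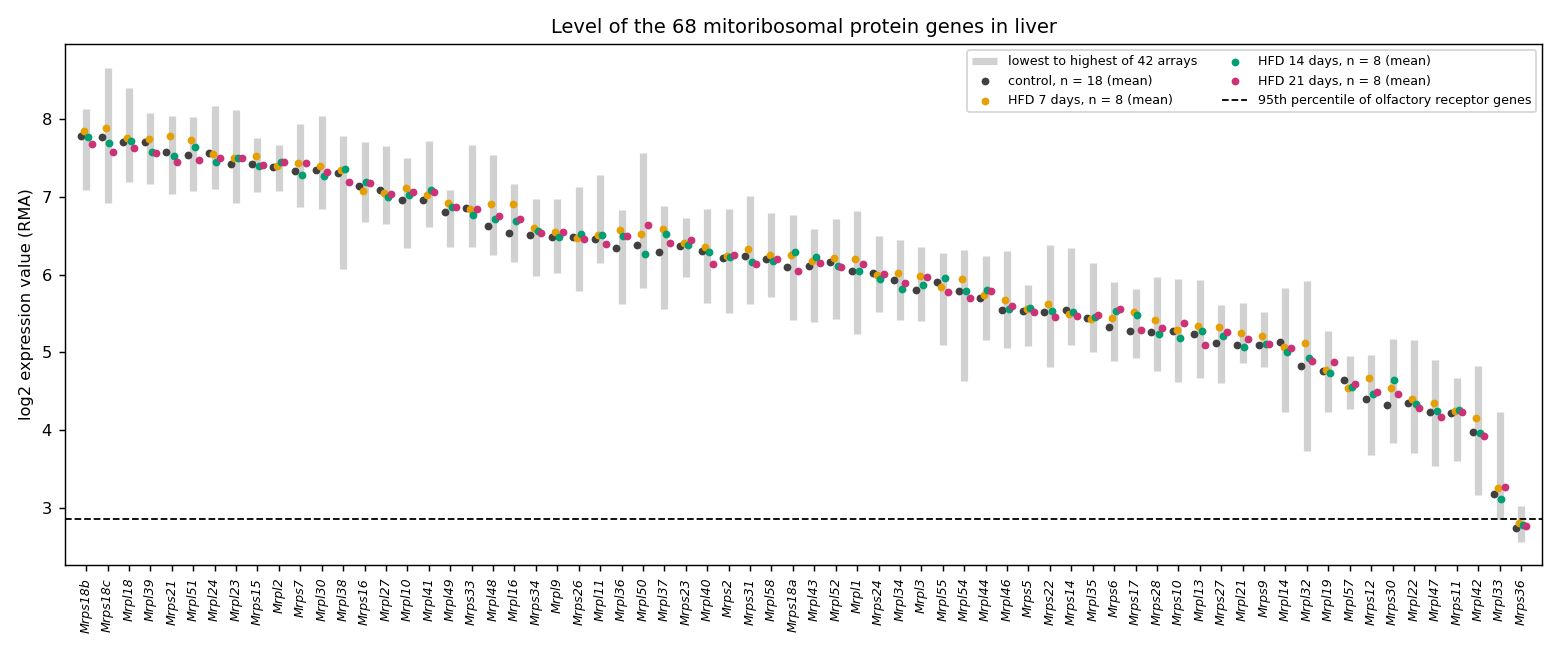
Level of each member (log2 RMA value, vertical axis) in order of its mean over all arrays. Points are group means for 18 control arrays and 8 arrays at each HFD time, grey bars span the lowest to the highest of 42 arrays, and the dashed line is the background at 2.87, which lies above Mrps36 (mean 2.77) and below the other members.

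Promoter sequences of 62 members were in the RefSeq table used here (build GRCm38.p6), as 68 windows of 300 bases from 250 before the annotated start to 50 after it. Short runs of letters known from promoters of mitochondrial genes, and common promoter motifs, were searched on both strands. The core of sites for ETS factors such as GABPA (CCGGAAG) was in 24 of 68 windows (35.3%), against 8.86% of all 32851 windows and 14.8% of windows of genes above background. The YY1 core (AAGATGGC) was in 12 (17.6%, against 2.75% and 3.93%), and the NRF1 core (GCGCATGC) in 7 (10.3%, against 2.71% and 4.65%). At least 1 of these 3 was found in 36 members. The GC box of SP1 (GGGCGG) was in 55.9% of windows, against 35.7% of all windows and close to the 58.8% of windows of genes above background. The CREB site (TGACGTCA) was in 2 windows (2.94%, against 1.79% and 2.76%) and the MYC E-box (CACGTG) in 6 (8.82%, against 7.15% and 9.71%). The ESRRA site (AAGGTCA) was in 3 (4.41%, against 4.72% and 3.71%) and the TATA box (TATAAA) in 5 (7.35%, against 13.6% and 7.92%). Matches of different motifs overlapped in 2 windows. Median GC content was 58.8% in member windows and 60.3% in windows of genes above background. A match is a run of letters and not a measured site.

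Promoters of 4 of the members named in this report are shown from 120 bases before the start to 29 past the first transcribed base, with motif letters in capitals. Mrpl52 and Mrps18a differed by replicate number, as described further on, and have ETS cores, and Mrps18a also has a YY1 core. An ETS core was in 6 of 11 members with a window that fell by replicate number and 1 of 5 that rose. Among all 62 members with a window 24 had one, and a link of motif and difference was not tested. Mrpl42 had the largest rise by replicate number over the 3 times and has a GC box, and Mrpl16 had the largest change at 7 days and has a TATA box and a CREB site.
Mrpl52 (chr14:54426789-54426938, plus strand): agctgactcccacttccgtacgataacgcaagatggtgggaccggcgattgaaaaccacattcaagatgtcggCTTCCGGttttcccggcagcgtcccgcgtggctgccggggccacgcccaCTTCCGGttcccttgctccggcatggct
Mrps18a (chr17:46110884-46111033, plus strand): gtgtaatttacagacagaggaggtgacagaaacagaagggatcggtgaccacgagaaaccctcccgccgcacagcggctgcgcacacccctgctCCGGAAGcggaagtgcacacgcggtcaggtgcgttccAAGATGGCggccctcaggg
Mrpl42 (chr10:95501920-95502069, minus strand): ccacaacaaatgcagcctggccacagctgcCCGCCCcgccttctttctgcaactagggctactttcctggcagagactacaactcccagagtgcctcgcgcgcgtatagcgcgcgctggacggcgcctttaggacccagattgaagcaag
Mrpl16 (chr19:11770295-11770444, plus strand): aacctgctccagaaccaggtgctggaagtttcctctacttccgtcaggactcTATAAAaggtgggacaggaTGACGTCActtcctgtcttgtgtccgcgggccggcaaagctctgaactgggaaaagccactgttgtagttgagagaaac

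The first comparison set each HFD time against the controls. None of the 68 members changed at 7, 14 or 21 days at an adjusted p under 0.05 (limma, Benjamini-Hochberg over all 17989 genes, 2-sided). Over all genes 251 (1.4%) were called at 7 days, 120 (0.667%) at 14 days and 126 (0.7%) at 21 days, so a count of 0 among 68 genes is near these shares. At an unadjusted p under 0.05 stood 10 members at 7 days, 3 at 14 days and 2 at 21 days, all with higher values on HFD as deposited. The same threshold took 1669 (9.28%), 1079 and 1198 (6.66%) of all 17989 genes. After quantile normalization 2 members were higher at 7 days, 2 higher and 1 lower at 14 days and 1 higher at 21 days. With median centring the counts were 13 higher, 3 higher, and 1 higher and 1 lower. The 95% interval of the change lay within 1.5-fold either way for 67 members at 7 days and for 68 at 14 and 21 days. Averaged over the 68 members, an array read 6.01 ± 0.12 (SD, n = 18) among controls. The 8 arrays of 7 days read 6.10 ± 0.10 (SD), those of 14 days 6.03 ± 0.11 and those of 21 days 6.02 ± 0.09, and the groups overlapped.

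At 7 days 57 members had higher and 11 lower values than in controls, with a median log2 difference of 0.08, against 0.02 for all genes above background. This tilt depended on the scaling: after quantile normalization of the arrays 35 were higher and 33 lower (median 0.01), and with arrays centred on their medians 64 were higher (median 0.12). At 14 days 40 were higher (median 0.01) and at 21 days 37 (median 0.02), and scaling turned these as well. Quantile normalization gave 29 higher and 39 lower at 14 days (median -0.02), and median centring 33 higher and 35 lower at 21 days (median -0.01). Large- and small-subunit members had alike medians at 7 days (0.07 and 0.08), as had those with a bacterial counterpart and those specific to mitochondria (0.08 and 0.08). Markers of Kupffer cells and macrophages moved at 7 days: 3 of 11 were called higher, where 1.4% of all genes were called. Their mean had a median of 5.33 over controls (highest 5.66) and of 5.64 at 7 days (5.52 to 5.90). Their part in the members' values was not tested.

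**Figure D2:**
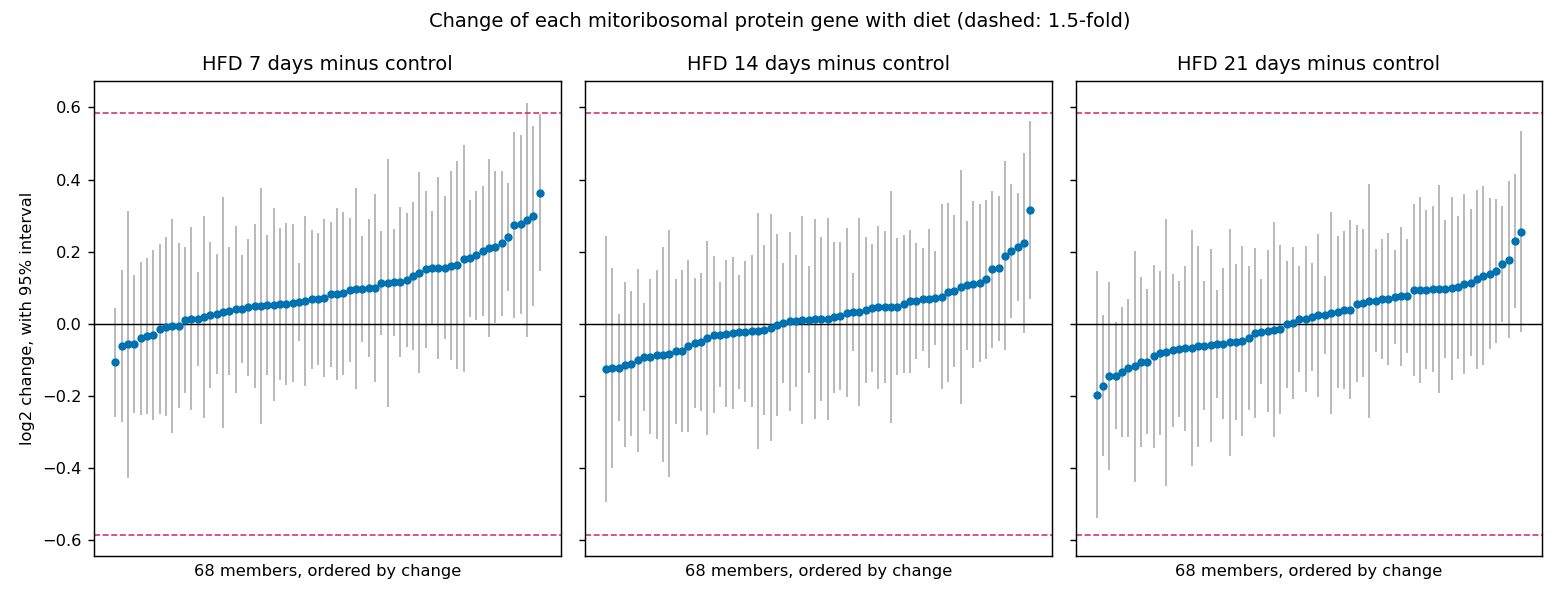
Change of each of the 68 members at 7, 14 and 21 days of HFD against 18 controls (log2, vertical axis), ordered by size within a panel, with 95% intervals from limma. Dashed lines mark 1.5-fold; 10 intervals at 7 days, 3 at 14 and 2 at 21 lie wholly above 0, and no change passed the adjusted threshold.

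The largest change at 7 days was that of Mrpl16, a large-subunit protein with a bacterial counterpart. Its controls ran from 6.16 to 7.02 (median 6.51). The 7-day arrays numbered 1 to 4 read 7.13, 7.14, 7.15 and 7.11, and those numbered 5 to 8 read 6.79, 6.77, 6.51 and 6.59. The first 4 thus lay above every control and the other 4 inside the controls' range. Over all 8 arrays the log2 change was 0.36 ± 0.11 (SE), a 1.29-fold difference, with an adjusted p of 0.088 (limma). Against the arrays numbered 1 to 4 alone it was 0.60 (adjusted p = 0.00503), and against those numbered 5 to 8 alone 0.13 (adjusted p = 0.819). With arrays 1-4 and 5-8 of each HFD group entered as separate groups and averaged, an alternative added after the data were seen, the same change of 0.36 was called (adjusted p = 0.0147). At 14 and 21 days Mrpl16 differed from controls by 0.15 and 0.18 in that fit, and neither passed.

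Mrps17 and Mrpl37 had the next smallest p-values at 7 days. Mrps17, a small-subunit protein, had a median of 5.32 in controls (4.93 to 5.52) and of 5.52 at 7 days (5.24 to 5.71), with a log2 difference of 0.24 ± 0.07 (adjusted p = 0.110, limma). Mrpl37, found only in mitochondria, had a median of 6.34 in controls (5.55 to 6.81) and 6.72 at 7 days (6.05 to 6.88), a difference of 0.30 ± 0.12 (adjusted p = 0.392). The ranges overlapped in both.

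At 14 days the smallest p-values belonged to Mrps17, Mrps30 and Mrps6, and none passed. Mrps17 had a median of 5.44 (5.35 to 5.81), with a difference from controls of 0.21 ± 0.07 (adjusted p = 0.389, limma). Mrps30, a mitochondria-specific protein of the large subunit despite its name, had a median of 4.61 (4.30 to 5.17) against 4.31 in controls (3.87 to 4.82), a difference of 0.32 ± 0.12 (adjusted p = 0.539). At 21 days they belonged to Mrps6, Mrpl3 and Mrpl39. Mrps6 had a median of 5.59 (5.18 to 5.90) against 5.30 in controls (4.89 to 5.88), a difference of 0.23 ± 0.09 (adjusted p = 0.541). Mrpl3, a large-subunit protein with a bacterial counterpart, differed by 0.17 ± 0.08 (adjusted p = 0.730). Mrpl39, a mitochondria-specific protein, differed by -0.14 ± 0.07 (adjusted p = 0.783).

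Between HFD times no member was called either. The call rule took 0% of all genes for 14 against 7 days, 0.00556% (1 gene) for 21 against 7 days and 0% for 21 against 14 days. At an unadjusted p under 0.05 stood 1, 4 and 2 members, against 2.51%, 7.13% and 3.97% of all genes. Mrps21, a small-subunit protein, had medians of 7.82, 7.54 and 7.44 at 7, 14 and 21 days. It was lower by 0.34 ± 0.11 at 21 than at 7 days (adjusted p = 0.574, limma), and the ranges overlapped. The other smallest p-values were those of Mrpl21 and Mrpl39 (14 against 7 days), of Mrps17 and Mrpl51 (21 against 7 and 21 against 14 days) and of Mrpl50 (21 against 14 days, 0.38), and none passed.

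Genes that work with the mitoribosome did not pass with diet either. None was called at any of the 3 times among 13 mitochondrial translation factors, 27 assembly factors, 16 mitochondrial aminoacyl-tRNA synthetases, 16 genes of mitochondrial transcription and RNA handling, 11 regulators of mitochondrial biogenesis and 4 mitoribosomal proteins with other symbols. The rule called 1.4%, 0.667% and 0.7% of all genes at 7, 14 and 21 days, so counts of 0 in lists this small are near these shares. The median log2 differences at 7 days were 0.12 for the translation factors and 0.11 for the assembly factors on the deposited scale. At an unadjusted p under 0.05 at 7 days stood 2 translation factors, 2 synthetases and 3 genes of transcription and RNA handling, and 0 of the other 3 lists. That threshold took 9.28% of all genes. The 73 respiratory chain and ATP synthase subunits had medians of 0.04, -0.02 and -0.03 at 7, 14 and 21 days. The 60 cytosolic ribosomal proteins, which build the ribosome of the cytosol, had medians of -0.05, -0.11 and -0.13. Of them 0 were called at each time, again near the shares of all genes.

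The second comparison split each HFD group by the replicate numbers in the titles into 2 sets of 4 arrays, 5-8 against 1-4. The labels do not say what the numbers stand for. Over the 3 times, 20 of 68 members (29.4%) differed between the sets (limma, adjusted p under 0.05). In the arrays numbered 5 to 8, 15 fell and 5 rose. The same rule called 21.1% of all genes and 28.4% of the 12118 genes above background, so the members' share was near that of other expressed genes. It was also near the shares of the respiratory chain subunits (21 of 73) and the cytosolic ribosomal proteins (17 of 60). The median over the members was -0.03, against -0.04 for genes above background. The 20 calls stood under both other scalings of the arrays as well, with 2 more falls after quantile normalization.

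Rises and falls stood side by side in both subunits. Of the 43 large-subunit members 4 rose and 9 fell, and of the 24 of the small subunit 1 rose and 6 fell. Of the 42 members with a bacterial counterpart 3 rose and 10 fell, and of the 26 specific to mitochondria 2 rose and 5 fell. The members that rose were Mrpl42 (log2 0.48), Mrpl35 (0.38), Mrpl24 (0.32), Mrpl51 (0.24) and Mrps9 (0.23). The largest falls were those of Mrps2 (-0.52), Mrpl38 (-0.51), Mrpl52 (-0.49), Mrpl14 (-0.48) and Mrps34 (-0.41). Those of the other 10 ran from -0.40 to -0.26. They were Mrpl16, Mrps18a, Mrps18b, Mrps12, Mrpl13, Mrpl54, Mrpl55, Mrps16, Mrps7 and Mrpl58. Mrps12 belongs to the decoding centre of the small subunit, and Mrpl58 is a peptidyl-tRNA hydrolase that became part of the large subunit.

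**Figure D3:**
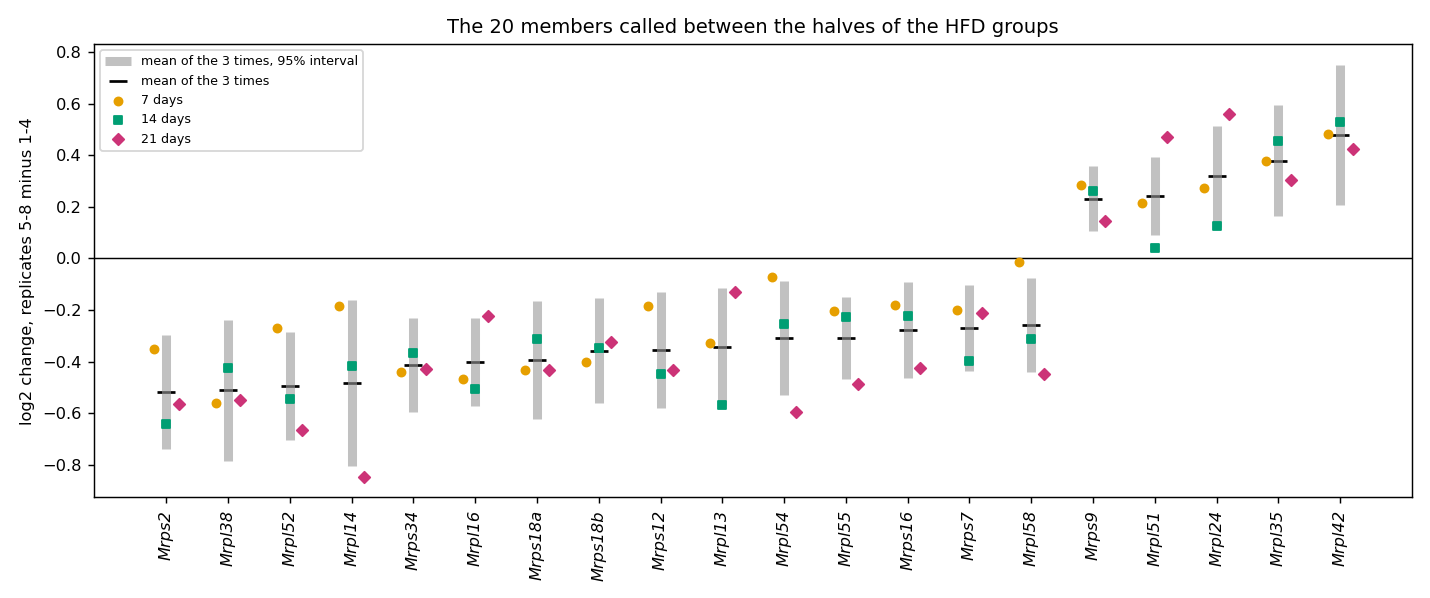
Difference between replicates 5 to 8 and 1 to 4 (log2, vertical axis) of the 20 members called over the 3 HFD times. Black bars are means of the 3 times with 95% intervals in grey, coloured points the differences at 7, 14 and 21 days; the 15 members to the left fell and the 5 to the right rose, each with the same sign at all 3 times.

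Mrps2, the counterpart of a bacterial small-subunit protein, had the largest difference. At 7 days its arrays numbered 1 to 4 read 6.24, 6.40, 6.41 and 6.59, and those numbered 5 to 8 read 5.76, 6.49, 6.02 and 5.97. At 14 days they read 6.51, 6.58, 6.49 and 6.63 against 5.92, 5.61, 6.16 and 5.94. At 21 days they read 6.66, 6.85, 6.33 and 6.27 against 6.13, 5.67, 5.91 and 6.15. The sets did not overlap at 14 and 21 days, and at 7 days 1 array of the second set lay inside the first. The fall was -0.52 ± 0.11 over the 3 times (adjusted p = 0.000789, limma).

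Mrpl52, a large-subunit protein found only in mitochondria, overlapped at 7 days and separated later. Its arrays 1-4 read 6.41, 6.23, 6.11 and 6.62 at 7 days, 6.37, 6.22, 6.24 and 6.72 at 14 days, and 6.56, 6.51, 6.42 and 6.22 at 21 days. Its arrays 5-8 read 6.17, 6.17, 5.94 and 6.004, then 6.02, 5.97, 5.70 and 5.67, then 5.43, 6.02, 6.07 and 5.53. The fall over the 3 times was -0.49 ± 0.10 (adjusted p = 0.000764, limma).

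Mrpl38, also specific to mitochondria, fell by 0.51 ± 0.14 on the log2 scale (adjusted p = 0.00597, limma), and its arrays numbered 6 were the lowest at 14 and 21 days. Arrays 1-4 read 7.55, 7.68, 7.65 and 7.59 at 7 days, 7.55, 7.52, 7.52 and 7.67 at 14 days, and 7.70, 7.65, 7.10 and 7.40 at 21 days. Arrays 5-8 read 6.87, 7.47, 6.72 and 7.19, then 7.41, 6.61, 7.29 and 7.25, then 7.25, 6.07, 6.96 and 7.39. The sets were apart at 7 and 14 days and overlapped at 21.

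Mrps34, a small-subunit protein, fell by 0.41 ± 0.09 on the log2 scale (adjusted p = 0.00110, limma). Arrays 1-4 ran from 6.76 to 6.96 at 7 days, 6.50 to 6.87 at 14 days and 6.66 to 6.97 at 21 days. Arrays 5-8 ran from 6.15 to 6.52, 6.20 to 6.52 and 6.10 to 6.57, and the sets overlapped at 14 days. Mrpl14, the counterpart of a bacterial large-subunit protein, varied more: its fall of -0.48 ± 0.16 (adjusted p = 0.0260) ended with any of 4 arrays left out (7-day arrays 4 and 8, 14-day arrays 4 and 7), with adjusted p-values up to 0.0648. Its sets overlapped at all 3 times.

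Mrpl42, a mitochondria-specific protein and one of the dimmest members, rose. Its arrays 1-4 read 3.87, 4.03, 4.10 and 3.65 at 7 days, 3.46, 3.61, 3.73 and 4.003 at 14 days, and 4.10, 3.82, 3.32 and 3.61 at 21 days. Its arrays 5-8 read 4.82, 4.19, 4.18 and 4.40, then 4.58, 4.54, 3.67 and 4.12, then 3.77, 4.69, 4.13 and 3.95. The sets were apart at 7 days and overlapped at 14 and 21, and the rise over the 3 times was 0.48 ± 0.13 (adjusted p = 0.00917, limma).

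**Figure D4:**
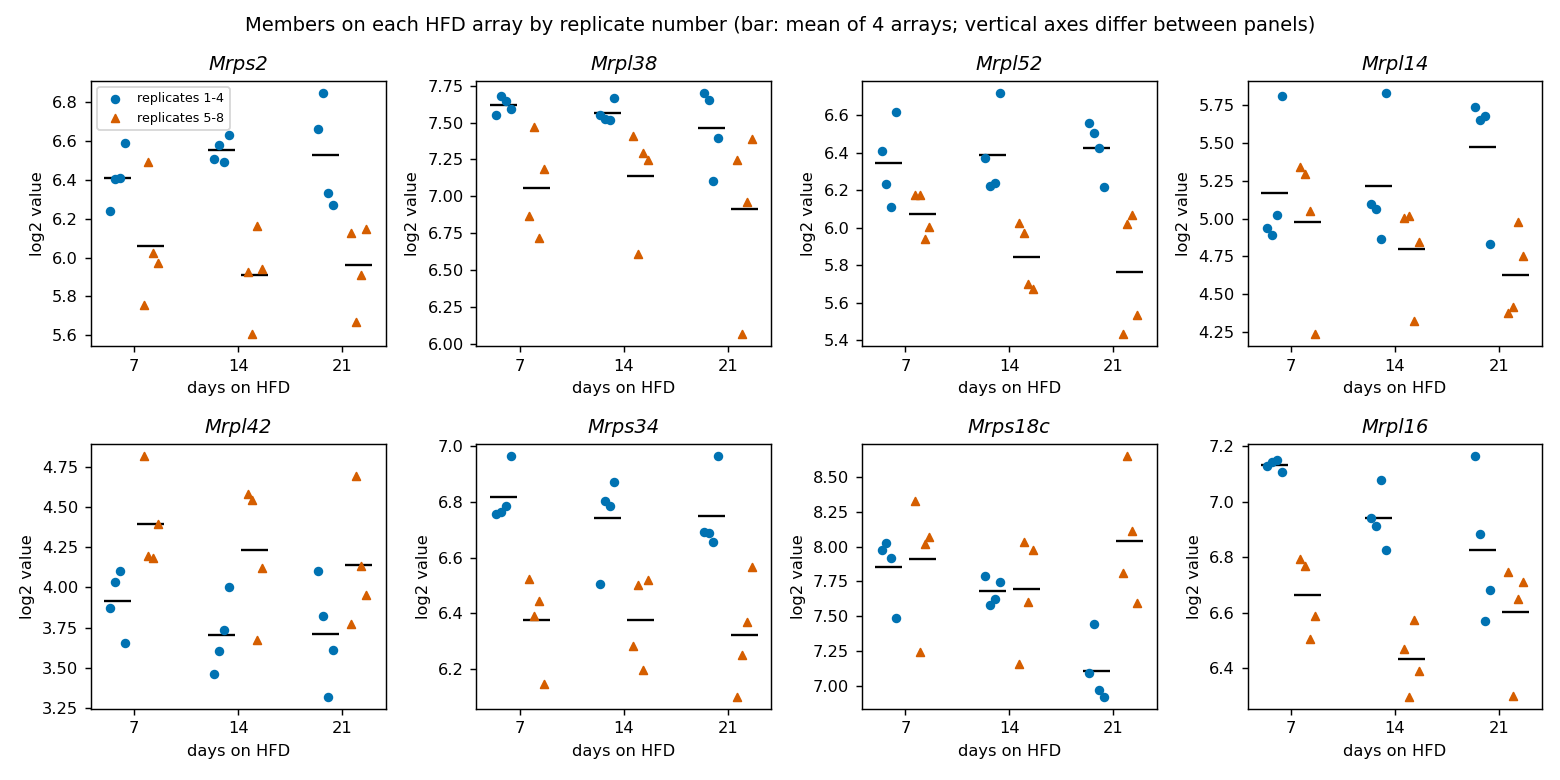
Log2 value on each HFD array (vertical axes, which differ between panels) at 7, 14 and 21 days for 8 members, replicates 1 to 4 as circles and 5 to 8 as triangles, with the mean of 4 arrays as a bar. Mrps2, Mrpl38, Mrpl52 and Mrps34 have lower means in replicates 5 to 8 at each time, Mrpl42 has higher ones, and Mrps18c is apart at 21 days.

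Taken time by time, 15 members were called at 21 days (22.1%) and 0 at 7 and 14 days. The rule called 19.1% of all genes and 25.5% of genes above background at 21 days, 0% of all genes at 7 days and 0.0278% at 14 days. At an unadjusted p under 0.05 stood 10 members at 7 days and 10 at 14 days (14.7% each), against 11.9% and 10.2% of all genes. The smallest p-values were those of Mrpl16 (-0.47), Mrps34 (-0.44) and Mrps9 (0.29) at 7 days and of Mrpl16 (-0.51), Mrps2 (-0.64) and Mrpl52 (-0.55) at 14 days. The test of a difference of this contrast among the 3 times called 0 members and 0% of genes, with 6 members and 9.98% of genes at an unadjusted p under 0.05. The sets were thus not shown to differ more at 21 days than earlier. At 21 days 6 members rose and 9 fell; after quantile normalization 2 rose and 17 fell, and with median centring 7 rose and 4 fell, with 11 and 10 of the 15 calls kept. Leaving out any of 5 of the 21-day arrays (1, 2, 3, 5 or 6) brought the count to between 5 and 9.

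The largest change at 21 days was that of Mrps18c. Arrays 1-4 read 7.09, 7.44, 6.97 and 6.92 and arrays 5-8 read 7.81, 8.65, 8.11 and 7.59, with no overlap and a difference of 0.94 ± 0.25 (adjusted p = 0.00773, limma). At 7 and 14 days the differences were 0.06 and 0.01. The test of the difference among times gave Mrps18c an adjusted p of 0.393, and Mrps24 and Mrpl3, next by p, 0.442 and 0.458. Its paralogues went the other way at 21 days: Mrps18a differed by -0.43 and Mrps18b by -0.32, and neither was called there. Mrpl14 (-0.85), Mrpl52 (-0.66), Mrpl54 (-0.60) and Mrps2 (-0.56) fell at 21 days, and Mrpl24 rose (0.56). The call of Mrpl14 ended without any of 21-day arrays 1, 2, 3, 5 or 6 or with array weights, and that of Mrpl54 without 2, 3 or 5. That of Mrps2 ended without 1, 2, 6 or 7 or with median centring, and that of Mrpl24 without 3 or 6 or after quantile normalization. Without array 5 the difference of Mrpl54 was -0.34.

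Of the members 8 (11.8%) had sets that did not overlap at 7 days, 10 (14.7%) at 14 days and 16 (23.5%) at 21 days. For all genes these shares were 9.19%, 9.19% and 18.3%, and for genes above background, as 67 of the members are, 11.1%, 11.4% and 23.4%. No member was apart in the same direction at all 3 times, as 1.35% of all genes were. The sign of the difference was the same at all 3 times for 38 members (55.9%), near the 53.8% of genes above background. With 7 and 14 days alone, an alternative added after the data were seen, 4 members were called: Mrpl16 (-0.49), Mrps2 (-0.50), Mrps34 (-0.40) and Mrps9 (0.27). That fit called 653 of all 17989 genes.

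Regulators and partners of the mitoribosome were also divided, under a rule that called 21.1% of all genes and 28.4% of genes above background. Of 11 biogenesis regulators 6 were called over the 3 times (limma): Gabpb2 (0.54), Gabpa (0.45) and the coactivator Ppargc1a (0.42) rose, and Gabpb1 (-0.27), Esrra (-0.27) and Pprc1 (-0.23) fell. At 7, 14 and 21 days Gabpa differed by 0.13, 0.14 and 1.08, Ppargc1a by 0.11, 0.30 and 0.84 and Gabpb2 by 0.27, 0.38 and 0.97. Pprc1 differed by -0.15, 0.02 and -0.55, Gabpb1 by -0.21, -0.31 and -0.29 and Esrra by -0.24, -0.23 and -0.34. The test of a difference among the 3 times called 0% of all genes. Nrf1 (0.09, adjusted p = 0.480) and Yy1 (-0.06, adjusted p = 0.699) were not called over the 3 times. Of 13 translation factors 3 rose, with Mtif2 at 0.76 and Guf1 at 0.54, and Qrsl1 fell. Of 16 genes of transcription and RNA handling 3 rose, Pnpt1 (0.74), Tfam (0.71) and Tfb2m (0.51), and 0 fell. Of 27 assembly factors 4 rose and 3 fell, with Mpv17l2 at -0.60 and Ngrn at 0.51. Of 16 aminoacyl-tRNA synthetases 2 rose, with Rars2 at 0.52, and 3 fell. Of 4 mitoribosomal proteins with other symbols Ptcd3 (0.52) rose and Gadd45gip1 (-0.25) fell.

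The nuclear RNA Malat1 differed between the sets by 2.48 (adjusted p = 6.12e-06, limma) and did not overlap at any time. Its values at 7 days ran from 6.60 to 7.01 in arrays 1-4 and from 8.79 to 9.43 in arrays 5-8. At 14 days they ran from 5.76 to 7.33 and from 8.61 to 9.21, and at 21 days from 6.20 to 7.41 and from 9.15 to 9.57. Over the 18 controls Malat1 ran from 5.49 to 9.54, and controls 10-18 differed from controls 1-9 by -0.86 (not called). The difference between the sets takes no control values, but the spread behind its p-values and calls does. Across the 68 members, Pearson's r with Malat1 over controls was itself related to the difference between the sets (r = 0.83 over members, and 0.77 over 12117 genes above background). This r is a description across genes, which share the same arrays and are not independent. Of the 15 members that fell, 13 had a negative r with Malat1 in controls (median -0.48), and of the 5 that rose 0 had (median 0.39). The part of whatever Malat1 follows in the members' differences was not tested. The acinar marker mean overlapped between the sets, and its highest array was in arrays 5-8 at each time. It ran from 3.54 to 7.35 in arrays 1-4 and from 3.50 to 9.27 in arrays 5-8 at 7 days, from 3.45 to 7.79 and 3.56 to 9.14 at 14 days, and from 3.50 to 5.21 and 3.32 to 6.28 at 21 days. With it as a covariate 20 members were called, a count given without the share of all genes in that fit. Over the settings tried, calls among all genes ran from 653 to 5009. Of the Kupffer cell and macrophage markers 5 of 11 were called between the sets (4 higher), against 21.1% of all genes. Of the hepatocyte markers 3 of 8 were called (2 higher) and of the endothelial markers 1 of 7. The stellate marker mean was lower in arrays 5-8 without overlap at 7 days (4.50 to 4.69 against 4.72 to 4.79). At 21 days so were those of cholangiocytes (3.08 to 3.17 against 3.23 to 3.49) and lymphocytes (2.82 to 2.95 against 2.99 to 3.07). The adipocyte mean was higher at 14 days (3.0395 to 3.2298 against 2.9354 to 3.0384). At the other times these means overlapped. By the same rule 9.19%, 9.19% and 18.3% of all genes did not overlap at 7, 14 and 21 days. The cholangiocyte, lymphocyte and adipocyte means lay near the background of 2.87, and the gap between the adipocyte sets was very small. The part of these markers was not tested.

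**Figure D5:**
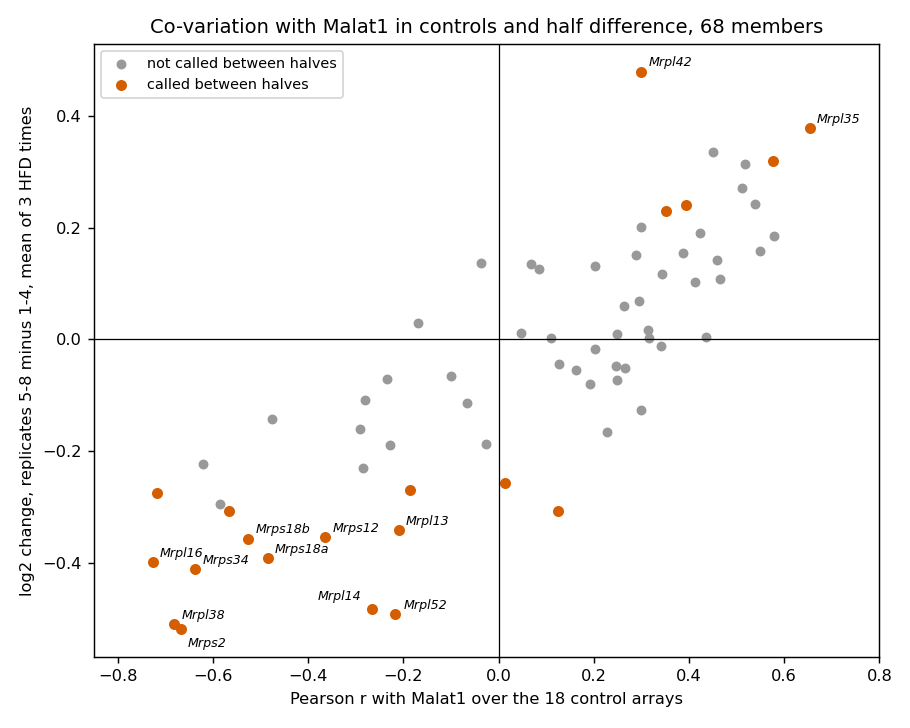
Pearson's r of each of the 68 members with Malat1 over the 18 control arrays (horizontal axis) against its log2 difference between replicates 5 to 8 and 1 to 4, as the mean of the 3 HFD times (vertical axis). Orange points are the 20 called members; the 5 called higher all have a positive r, and 13 of the 15 called lower have a negative one.

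The members moved together only loosely. Over the 18 controls the median Pearson's r over the 2278 pairs of members was 0.22, against 0.41 for pairs of cytosolic ribosomal proteins, 0.22 for respiratory chain subunits and 0.01 for pairs of genes above background. The SD over controls ran from 0.09 for Mrps36 to 0.43 for Mrpl32. Mrpl46 and Mrps11 are the 1 pair of members that lie next to each other among protein-coding genes, on opposite strands of chromosome 7. Between the sets Mrpl46 differed by 0.12 (adjusted p = 0.425) and Mrps11 by -0.16 (adjusted p = 0.207), and at 21 days Mrps11 fell by 0.47.

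Between controls numbered 10 to 18 and those numbered 1 to 9, a split inside 1 diet, no member was called and 0% of genes were (limma). At an unadjusted p under 0.05 stood 8 members, against 10.9% of all genes. The median over members was 0.08 as deposited, 0.03 after quantile normalization and 0.12 with median centring, and 0.04 without control 15. Mrpl37 had the smallest p, with 0.32 ± 0.12 (adjusted p = 0.352), followed by Mrpl10 (0.26) and Mrps7 (0.22). A probe set outside this gene family had values on controls 1 to 9 only.

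Second probe sets existed for 7 members. They gave like values between the sets for Mrps5 (0.19 and 0.21), Mrps33 (0.31 and 0.30) and Mrpl23 (0.14 and 0.08). They disagreed for Mrpl47, whose brighter probe set gave 0.06 and the dimmer one -0.31 (adjusted p = 0.00868), and for Mrpl51, with 0.24 and 0.01. At 21 days the brighter probe set of Mrps5 gave 0.46 (adjusted p = 0.0126, limma) and the dimmer one 0.21 (adjusted p = 0.322). Those of Mrpl47 gave 0.23 and -0.61 (adjusted p = 0.389 and 0.00364) and those of Mrpl51 0.47 and 0.23 (0.00947 and 0.603). Mrps33 (0.33 and 0.31) and Mrpl23 (0.16 and 0.11) again had like values. Among other members of known role, Mrpl10, which anchors the stalk of the large subunit, differed by -0.14 between the sets (adjusted p = 0.282). Mrpl44, a member of the RNase III family, differed by 0.07 (adjusted p = 0.707), and Mrps30 by -0.22 (adjusted p = 0.151).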

How the data were processed

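Liver RNA of 42 mice was hybridised to Affymetrix whole-transcript arrays. The labels' protocols name miRNeasy extraction with DNase, and the submitters' processing notes name RMA and Affymetrix Expression Console 1.1 for what the authors deposited. The deposited values are log2 and were used as they stand. RMA corrects background, normalizes and summarizes probes, so differences common to whole arrays are partly removed. Of 32624 probe sets 19559 had 1 gene symbol in the platform annotation, and 19474 of these matched RefSeq by Entrez identifier. One probe set with missing values was left out. Groups came from the labels. Each comparison was fitted in limma 3.58.1 (R 4.3.3; lmFit, eBayes) on all arrays, with 4 groups for diet, 7 with HFD groups split by replicate number and 8 with controls split too, and p-values were adjusted over 17989 genes. Fits were tried on simulated data with independent noise for each gene and array, which lack the differences that genes share across real arrays. Changes of 1.5-fold were called in 86% of cases for 7 days against controls and 93% between the sets over the 3 times. At 21 days between the sets 51% were called, and between the 2 sets of controls 89%. Alternatives covered scaling, filters, probe sets, weights, priors, subsets, blocks, an acinar covariate and each array left out. Named members were those called (at most 6 by size) or the 3 with the smallest p, the 3 brightest and 3 dimmest, and a fixed panel. The members and lists were chosen with earlier results of these data known.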

Additional observations from a re-analysis of the deposited data

Results flagged for a closer look

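Among the HFD groups of 8 arrays, 11 of 96 groups of values (the 32 members chosen by the naming rule, at 3 times; the other members were not checked) held 1 array far from the other 7 by Dixon's criterion. Chance alone sets apart about 1 in 20 independent groups of like arrays. The groups here share arrays, hold both sets of 4, and many members were named for their differences. The count therefore cannot be weighed against that share. At 7 days replicate 5 was the highest for Mrpl3 (6.27), Mrpl50 (7.21) and Mrpl24 (8.05). At 14 days replicate 6 was the lowest for Mrpl38 (6.61) and Mrps18b (7.185), replicate 4 the highest for Mrpl54 (6.31) and Mrps7 (7.935), and replicate 8 the highest for Mrpl18 (7.94). At 21 days replicate 6 was the lowest for Mrpl38 (6.065) and the highest for Mrpl33 (4.235), and replicate 5 the lowest for Mrpl54 (4.64).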

How the results depend on the processing

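No member was called against controls as the values stand, but single members were under some settings. At 7 days array weights called 2 (Mrpl16 and Mrps17), arrays 1-4 alone 1 and the averaged sets of arrays, added after the data were seen, 1 (Mrpl16 in both). Leaving out 1 array gave 0 to 1 at 7 days, with Mrpl16 called without control 4, control 16 or 7-day replicate 7, and 0 at 14 and 21 days and between times. At 21 days arrays 1-4 alone called 2 (Mrps18c and Mrps6), and with arrays 5-8 alone the difference of Mrpl39 turned to 0.00425. Between arrays 5-8 and 1-4 over the 3 times, 7 and 14 days alone called 4 members, and leaving out 1 array 16 to 23. Among all genes leaving out 1 array called 3251 to 4084. At 7 days array weights called 6 and a fit on HFD arrays alone 1, and at 14 days 4 and 2. In this contrast array weights called 1356 of all genes at 7 days and 569 at 14 days, against 0 and 5 as the values stand. For the fits on HFD arrays alone that share is not given. At 21 days leaving out 1 array gave 5 (without replicate 2) to 17, and 1987 to 3578 among all genes. The causes were not tested. Over all genes, calls at 7 days ran from 144 (arrays 5-8 alone) to 605 (array weights), at 14 days from 58 to 193, at 21 days from 71 to 903 (arrays 1-4 alone), and between the sets over the 3 times from 653 (7 and 14 days) to 5009 (array weights). With the replicate number as a fixed block 0 members were called against controls and between times. HFD arrays are numbered 1 to 8 only, so that fit takes nothing from controls with higher numbers. With the number as a random block 21 members were called over the 3 times and 15 at 21 days. The random-block counts are given without the share of all genes in those fits. Same-numbered arrays did not deviate together in every pair (lowest correlation -0.37, controls with 7 days), so the numbers were not taken as pairs. Between 14 and 21 days 7 of 8 correlations of deviations from the group mean were over 0.1 (0.098 to 0.517, median 0.25). Such deviations hold the difference between arrays 5-8 and 1-4. As deviations from the mean of each set of 4 arrays, 3 of 8 were over 0.1 (0.013 to 0.488, median 0.079). Either way 2 of 8 arrays correlated best with their own number.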
